A study of Mus musculus with 4 samples.

Results

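Small nucleolar RNA (snoRNA) and small nuclear RNA (snRNA) genes were read in mouse microglia, the brain's own macrophages, grown in culture with and without the bacterial cell wall component lipopolysaccharide (LPS). The members are all genes whose symbol starts with Snora, Snord, Scarna or Rnu followed by a digit and whose probe set carries 1 gene symbol. That gives 59 of 19938 named genes: 32 of the box C/D kind, 20 of the box H/ACA kind, 3 small Cajal body RNAs, and 4 spliceosomal or U7 genes. The only measured value used was the mean over the 4 arrays: where a gene had several probe sets, the one with the highest mean was chosen by that value, which applied to 6 members.

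Total RNA was labelled with random primers and read on Affymetrix Mouse Gene 1.0 ST arrays, 1 array for each of 4 groups. The groups were wild type (WT) cells of strain C57Bl without treatment, the same with LPS for 3 h, cells labelled Bid-/- without treatment, and cells labelled Bid-/- with LPS for 3 h. Bid is a Bcl-2 family protein that carries death receptor signals to mitochondria. The sources used here do not give the strain of the Bid-/- cells, the sex and number of the mice, or how many cultures were pooled or kept apart.

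SnoRNAs are short RNAs of the nucleolus that pair with ribosomal RNA. Box C/D RNAs guide methylation of the ribose through the methyltransferase fibrillarin, box H/ACA RNAs guide conversion of uridine to pseudouridine through dyskerin, and a few of either kind are needed instead to cut the ribosomal RNA precursor. Small Cajal body RNAs guide the same modifications on the snRNAs, which form the core of the spliceosome. In mammals most snoRNAs are cut out of introns of a host gene, often one for a ribosomal protein or a translation factor, whereas U3, U8 and the snRNAs come from genes of their own.

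Nothing was replicated, so differences between single arrays come without an error or a p-value, and 4 arrays limit the precision of every value here. Values are log2 expression as deposited, so a difference of 1 is 2-fold. Signals of different probe sets do not rank the abundance of different RNAs. A probe set inside an intron also cannot separate the finished snoRNA from unspliced host RNA after random priming, and RNAs with near-identical gene copies, such as U3, U6 and the Snora73 pair, may share signal. A gene was counted or tested when an array of the comparison reached 4.26, which is the median probe set's mean signal. Of the 59 members 46 reached this floor on some array and 13 did not. Snord85 (highest array 4.18), Snord42a (3.97) and Snord82 (3.76) lay just outside it, and Snord87 (4.36), Snora69 (4.52) and Snord73a (4.57) just inside.

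The labelled cell type was checked on marker signals, given as a description because they come from different probe sets: 11 measured microglia markers had a median of 9.11, against 4.17 for 5 astrocyte, 4.43 for 4 oligodendrocyte, 3.22 for 5 neuron and 4.58 for 3 endothelium markers. P2ry12, a purinergic receptor that marks resting microglia, was at or near the floor, between 3.90 and 4.38. The 8 fibroblast and mural markers had medians of 5.36 (WT control), 6.24 (WT LPS), 6.06 (Bid-/- control) and 6.08 (Bid-/- LPS). Of these, Lum (3.08 to 3.75) was under the floor on every array. The log2 values of the 8 summed to 41.2, 48.2, 47.6 and 46.7, and such a sum is not an amount of RNA. The probe set for Bid read 5.69, 5.02, 5.53 and 5.97 in the same order. It was not lower on the Bid-/- LPS array than on the WT LPS array, so every direction between genotypes below rests on the labels. The LPS response itself was present with both labels, with Tnf 2.87 and 3.03 higher and Il6 4.47 and 3.68 higher in WT and in cells labelled Bid-/-.

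The genes that carry the snoRNAs are shown first by their starts, because many snoRNA hosts belong to a class of messenger RNAs that begin with C followed by a run of pyrimidines and whose translation follows nutrient signals. The sequences are from the RefSeq promoter table of build GRCm38.p6, 40 bases before and 20 bases from the annotated start, and the capitals mark the run of C and T that begins at that start. The first 5 hosts begin with C in a run of at least 5 pyrimidines; the other 4 do not.
Rack1, host of Snord95 and Snord96a, chr11:48800320-48800379, plus strand: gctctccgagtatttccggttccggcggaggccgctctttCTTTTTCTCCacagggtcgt
Rplp2, host of Snora52, chr7:141447611-141447670, plus strand: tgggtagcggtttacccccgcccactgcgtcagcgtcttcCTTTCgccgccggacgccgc
Ipo7, host of Snora23, chr7:110018275-110018334, plus strand: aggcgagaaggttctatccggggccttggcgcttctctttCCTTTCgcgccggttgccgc
Gas5 (second annotated start), host of Snord47, chr1:161035126-161035185, plus strand: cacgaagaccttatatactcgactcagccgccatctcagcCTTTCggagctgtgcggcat
Gm36220, host of Snord104, chr11:106500875-106500934, plus strand: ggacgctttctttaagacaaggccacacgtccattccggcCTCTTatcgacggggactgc
Snhg12, host of Snora16a and Snora44, chr4:132308638-132308697, plus strand: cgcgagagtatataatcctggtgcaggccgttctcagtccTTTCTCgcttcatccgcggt
Snhg1, host of Snord22, chr19:8723447-8723506, plus strand: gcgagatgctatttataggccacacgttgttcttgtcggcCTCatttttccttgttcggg
Ncl, host of Snora75 and Snord82, chr1:86359436-86359495, minus strand: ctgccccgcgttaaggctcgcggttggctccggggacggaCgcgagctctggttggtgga
Eef2, host of Snord37, chr10:81176591-81176650, plus strand: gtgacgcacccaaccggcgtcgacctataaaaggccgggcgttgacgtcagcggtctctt

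A start at C with at least 4 further pyrimidines, read on the gene's own strand, was found for 6 of 32 host genes in the table (18.75%) and for 813 of all 27025 genes in it (3.01%). Single promoters gave 6 of 34 (17.65%) and 823 of 32851 (2.51%). A match is a description of the annotated start; a start a few bases off, as for Snhg12, does not match. The hosts of Snord37 and Snora75, which passed the test for LPS below, do not match at these annotated starts. The host was taken as the gene whose RefSeq span holds the member, which named 42 hosts.

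With LPS, the snoRNA and snRNA genes as a set read higher with both genotype labels. Over all 59 members the median LPS difference was 0.36 in WT, with 47 above 0 and 11 below, and 0.38 in cells labelled Bid-/-, with 46 above 0 and 12 below. Over all 19938 genes the medians were 0.01 and -0.01, with 51.5% and 46.0% of genes above 0. The box H/ACA genes had medians of 0.42 and 0.53 and the box C/D genes of 0.35 and 0.34. MicroRNA genes, 300 in number and also short, had medians of 0.07 and 0.10. Most of them were above 0 as well, with 191 above and 93 below in WT and 212 and 73 in cells labelled Bid-/-.

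Few single members were 2-fold different. In WT, Rnu3a, Snora23, Snord22 and Snord37 were at least 2-fold higher, 4 of 46 members or 8.7%, against 2.39% of all 11129 genes counted, and 0 members were 2-fold lower against 2.08%. In cells labelled Bid-/-, Snora20, Snora30 and Snord37 were at least 2-fold higher, 3 of 43 or 6.98%, against 2.7% of 10995 genes, and 0 were 2-fold lower against 1.65%. Snord37 alone was on both lists. These shares are no support for a shift of the set, since Rnu3a and Snord37 in WT and all 3 genes with the other label were under the floor on the control array and were counted only because the LPS array was higher.

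An additive model of genotype and LPS over all 4 arrays asks which genes differed alike with both labels. In this limma fit 2 of 46 members rose with LPS at a Benjamini-Hochberg adjusted p under 0.05 over all genes (4.35%, against 1.68% of 11326 genes), and 0 fell (against 1.56%). Snord37, 1 of the 2, was under the floor on both control arrays and entered the test through its LPS arrays alone. The share of called members is therefore no support for a shift of the set. At an unadjusted limma p under 0.05, 22 of 46 members were higher and 0 lower, beside 9.08% and 19.7% of all genes tested. Of these members Snora20, Snora62 and Snord87, like Snord37, were under the floor on both control arrays and entered through LPS arrays alone. That count too is no support for a shift of the set. The count of called members depends on the settings: it was 0 with no floor or with no trend in the prior, and 22 to 29 after quantile normalization, after removal of a trend with level, or with a prior set without residuals of exactly 0. Calls over all genes moved likewise: from 190 higher to 0 with no floor, 153 with no trend in the prior, and 810, 992 and 865 in the other 3 settings. The only residual of this fit is the gap between the LPS differences of the 2 labels, so these p-values do not measure a spread between replicates. They favour a gene whose LPS differences happen to be alike with both labels. The labels also do not say whether the cultures were separate.

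**Figure D1:**
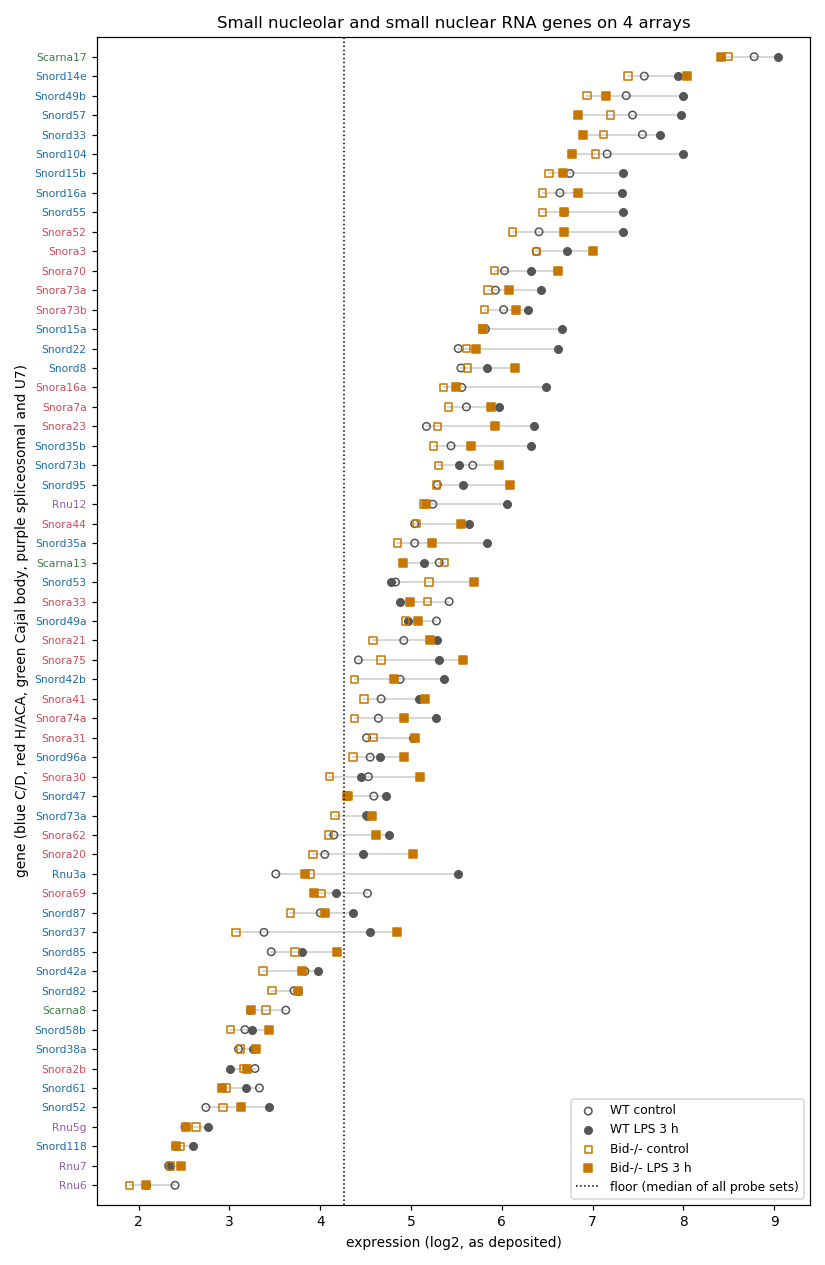
Deposited log2 expression (x axis) of each of the 59 snoRNA and snRNA genes (rows, ordered by mean signal, which is not an order of abundance) on the 4 arrays. Open symbols are control arrays and filled symbols LPS arrays, circles WT and squares labelled Bid-/-; the grey line spans the 4 values and the dotted line is the floor of 4.26. Filled symbols lie to the right of the open ones in most rows, and for Rnu3a only the WT LPS array (5.52) stands off from the other values (3.51 to 3.89).

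Among box C/D genes, Snord37 rose with LPS. Snord37, a methylation guide for large-subunit ribosomal RNA in an intron of Eef2, read 3.38 on the WT control array, 4.55 on WT LPS, 3.07 on Bid-/- control and 4.85 on Bid-/- LPS. Both LPS arrays lay above both control arrays. The differences were 1.17 and 1.78, with a mean of 1.48 (SE 0.18, limma adjusted p = 0.045, and 6.03e-22 to 0.127 over the 6 alternatives that could test it). Both control values lie under the floor, so Snord37 entered the test through its LPS arrays alone and the size of its difference is uncertain.

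Rnu3a, a gene for U3, the box C/D RNA that starts cleavage of the ribosomal RNA precursor, was high on 1 array only. It read 3.51 (WT control), 5.52 (WT LPS), 3.89 (Bid-/- control) and 3.83 (Bid-/- LPS). The difference was 2.01 in WT and -0.06 in cells labelled Bid-/-. All values but the WT LPS one lie under the floor, so the sizes are uncertain. Snord22, which is needed for making small-subunit ribosomal RNA and lies in Snhg1, had the same shape, with 5.52, 6.62, 5.61 and 5.72 in the same array order. Its difference was 1.10 in WT and 0.11 in cells labelled Bid-/-.

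A larger group of box C/D genes showed this WT-sided pattern at smaller size. Snord104, a methylation guide, read 7.16, 8.00, 7.03 and 6.77, so that it was 0.84 higher with LPS in WT and 0.26 lower (-0.26) with the other label. Snord57, which lies in Nop56, a gene for a core protein of the box C/D particle, read 7.44, 7.97, 7.20 and 6.84, differences of 0.53 and -0.36. Snord15a, in an intron of the ribosomal protein gene Rps3, read 5.82, 6.66, 5.79 and 5.79. In each of these 3 genes the WT LPS array was the highest of the 4, and for the first pair the Bid-/- LPS array was the lowest. Snord16a, in Rpl4, was higher with both labels but more in WT (0.68 and 0.39).

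Other box C/D genes read higher mainly in cells labelled Bid-/-. Snord95, in Rack1, a gene for a scaffold protein of the ribosome, read 5.29, 5.57, 5.28 and 6.09, so that LPS differences were 0.28 in WT and 0.81 in cells labelled Bid-/-. Snord73b, in the ribosomal protein gene Rps3a1, read 5.68, 5.53, 5.30 and 5.97, differences of -0.15 and 0.67. Snord8 (0.29 and 0.53) and Snord14e, a U14 gene in Hspa8 whose family is needed for making small-subunit ribosomal RNA (0.37 and 0.65), lay nearer to each other. Snord53, in Wdr43, read 4.83, 4.78, 5.20 and 5.69 and was high on both arrays labelled Bid-/-, most with LPS.

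Several box C/D genes differed little with LPS. Snord33 (7.55, 7.74, 7.12 and 6.90) had LPS differences of 0.19 and -0.22, Snord47 of 0.13 and 0.02, and Snord49a of -0.31 and 0.14. Snord33 lies in Rpl13a, whose snoRNAs are known for a role in metabolic stress. Snord118, the U8 RNA needed for making large-subunit ribosomal RNA, stayed between 2.41 and 2.60, under the floor, so no difference was detectable.

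Among box H/ACA genes, Snora75 rose with LPS by nearly the same amount with both labels. Snora75 lies in Ncl, the gene for nucleolin, and read 4.42 (WT control), 5.31 (WT LPS), 4.67 (Bid-/- control) and 5.57 (Bid-/- LPS). The LPS differences were 0.89 and 0.90, or 1.85-fold and 1.87-fold, with a mean of 0.90 (SE 0.10, limma adjusted p = 0.0401, and 1.22e-07 to 0.12 over 7 alternatives). Both LPS arrays lay above both control arrays.

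The next box H/ACA genes were higher with both labels and did not pass. Snora23, in the import receptor gene Ipo7, read 5.17, 6.35, 5.29 and 5.92, differences of 1.18 and 0.63 (limma adjusted p = 0.0708, and 4.16e-07 to 0.162 over 7 alternatives). Snora52, in the ribosomal stalk gene Rplp2, read 6.41, 7.34, 6.12 and 6.69, differences of 0.93 and 0.57. For both genes the LPS arrays lay above the control arrays without overlap. Snora62 (0.61 and 0.52), Snora74a (0.63 and 0.54) and Snora31 (0.51 and 0.46) were nearly equal between the labels. Of these, Snora62 was under the floor on both control arrays (4.15 and 4.09), so the size of its differences is uncertain.

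The pair Snora20 and Snora30 was higher mainly in cells labelled Bid-/-. Snora20, in the chaperonin gene Tcp1, read 4.05, 4.47, 3.92 and 5.02, differences of 0.42 and 1.10. Snora30 read 4.53, 4.45, 4.10 and 5.10, so that its differences were -0.08 in WT and 1.00 with the other label. Both genes were under the floor on the Bid-/- control array, and Snora20 on the WT control array too. For both genes the Bid-/- LPS array was the highest and the Bid-/- control array the lowest of the 4.

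Snora16a went the other way, high on the WT LPS array alone (5.56, 6.49, 5.36 and 5.50). It is in Snhg12, a non-coding host. Among H/ACA genes the lowest LPS difference was that of Snora33, in Rps12 (5.42, 4.88, 5.18 and 4.99; -0.54 and -0.19), and Snora69, in Rpl39, read -0.35 and -0.08. Snora73a and Snora73b, genes of the U17 RNA that is needed to cut the precursor rather than to modify it, read 0.50 and 0.27 in WT and 0.23 and 0.35 in cells labelled Bid-/-.

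Of the Cajal body RNAs, Scarna17 and Scarna13 reached the floor. Scarna17 read 8.78, 9.04, 8.50 and 8.41, with differences of 0.26 and -0.09. Scarna13, in Snhg10, read 5.31, 5.14, 5.37 and 4.91, differences of -0.17 and -0.46, and Scarna8, in Haus6, stayed under the floor at 3.62, 3.23, 3.40 and 3.24.

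Of the snRNA genes only Rnu12 reached the floor. Rnu12 encodes U12, the snRNA of the minor spliceosome that recognises the branch site, and read 5.24, 6.06, 5.14 and 5.17. As for Rnu3a, the WT LPS array stood alone, 0.82 above its control, against 0.03 with the other label. Rnu6 (2.40, 2.08, 1.90 and 2.08) and Rnu5g (2.51, 2.76, 2.63 and 2.52), of the major spliceosome, were too dim for a comparison. So was Rnu7 (2.33, 2.34, 2.35 and 2.47), whose RNA processes the ends of histone messengers.

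By a fixed step, the members counted as higher with LPS were often different ones in the 2 genotype labels. With a step of 0.5 in log2, 6 members were higher with both labels (Snora23, Snora52, Snora62, Snora74a, Snora75 and Snord37), 17 with WT alone and 11 with the Bid-/- label alone. That is 10.2%, 28.8% and 18.6% of members, against 2.62%, 2.21% and 2.42% of all genes, and 24 members (40.7%, against 79.9%) were within the step with both labels. Snora33 alone was lower by the step (1.69%, against 12.9%). The step decides some members: Snora31 (0.51 and 0.46) and Snora44 (0.60 and 0.49) count as WT alone. Members counted with 1 label alone were above 0 with both labels, except Rnu3a, Snord15a, Snord57, Snord104, Snora30 and Snord73b. These counts used no floor, and Snord52, counted as WT alone, was under it on every array. The floor is reached by 46 of 59 members and 11326 of 19938 genes, so the shares over all genes include more dim genes. The 17 held 12 box C/D, 4 box H/ACA and 1 snRNA gene, the 6 held 1 box C/D and 5 box H/ACA, and the 11 held 5 and 6. Across the 59 members the LPS difference in WT and that in cells labelled Bid-/- had Pearson's r of 0.22 and Spearman's rho of 0.21, against 0.70 and 0.47 across all 19938 genes. These are descriptions across genes, which share the same 4 arrays and are not replicates. Over the 46 members that reach the floor the values were 0.12 and 0.04.

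**Figure D2:**
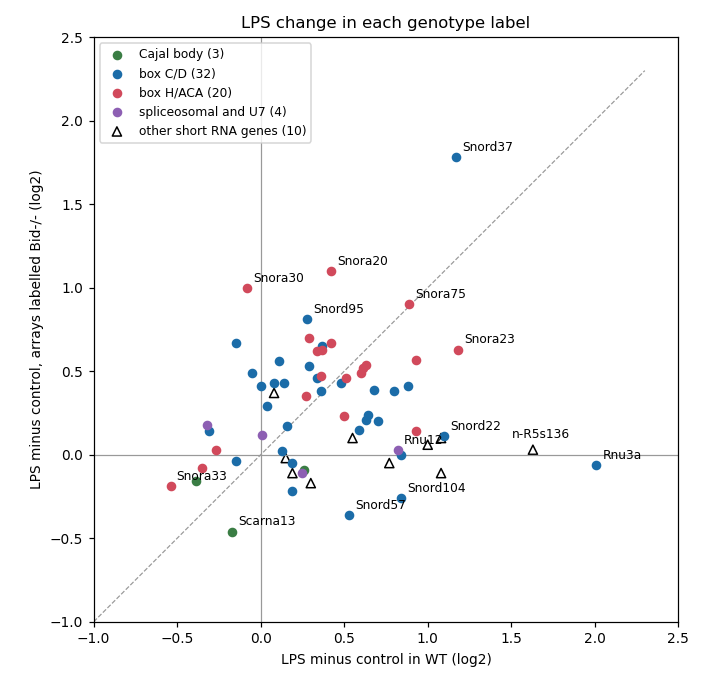
LPS minus control in WT (x axis, log2) against LPS minus control on the arrays labelled Bid-/- (y axis, log2), 1 point per gene, coloured by class, with the dashed line marking equal differences and open triangles 10 other short structured RNA genes. Rnu3a lies at 2.01 and -0.06, Snora30 at -0.08 and 1.00, and Snord37 at 1.17 and 1.78; the triangles run from 0.08 to 1.63 in x and from -0.17 to 0.37 in y.

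Without LPS the members were slightly lower on the array labelled Bid-/-. The median difference from WT was -0.19, with 43 of 59 below 0 and 15 above, against a median of 0.00 over all genes. Other short RNA genes leaned the same way. The 300 microRNA genes had a median of -0.05, with 190 below 0 and 102 above. The 10 other short structured RNA genes had a median of -0.13, with 9 below 0 and 1 above. No member, 0 of 41, was 2-fold different in either direction, against 0.358% of 10909 genes higher and 0.0733% lower. Box C/D (-0.19) and box H/ACA (-0.16) genes had like medians. The lowest of the members at the floor on some array were Snora69 (-0.51), Snord42b (-0.50), Snord33, Snord49b and Snora30 (each -0.43), and the highest Snord53 (0.37) and Snora75 (0.25). Rnu3a (0.38) was under the floor on both of these arrays.

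With LPS the genotype labels differed more, and in both directions. The median over 59 members was -0.15, with 34 below 0 and 24 above, against -0.02 over all genes. On the array labelled Bid-/-, Rnu3a (-1.69), Snord104 (-1.23) and Snord57 (-1.13) were at least 2-fold lower, 3 of 45 or 6.67%, against 0.489% of 11044 genes. Rnu3a was under the floor on that array and was counted through the WT LPS array alone. None, 0 of 45, was 2-fold higher, against 0.326%. Next came Snora16a (-0.99), Snord22 (-0.90), Rnu12 (-0.89), Snord15a (-0.87), Snord49b (-0.85) and Snord33 (-0.84). At the other end stood Snord53 (0.91), Snora30 (0.65), Snora20 (0.55), Snord95 (0.52), Snord73b (0.44) and Snord8 (0.31). The SD of the difference between the 2 LPS arrays was 0.51 over the 59 members and 0.29 over all genes, while between the 2 control arrays it was 0.21 and 0.19. For genotype the limma fit called 0 of 46 members and 0% of 11326 genes in either direction; at an unadjusted limma p under 0.05, 1 member was higher and 8 lower, beside 3.94% and 2.32% of all genes.

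**Figure D3:**
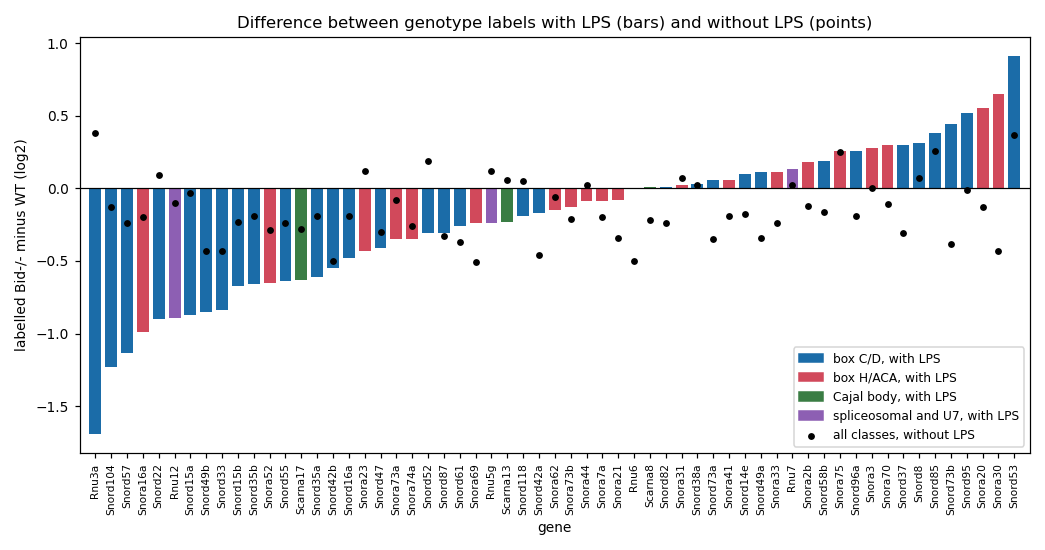
Difference between the genotype labels, labelled Bid-/- minus WT (y axis, log2), with LPS (bars, coloured by class) and without LPS (points) for each of the 59 genes, ordered by the value with LPS. The bars run from -1.69 (Rnu3a) to 0.91 (Snord53), and the points from -0.51 to 0.38.

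The LPS difference itself differed at least 2-fold between the labels for 3 of 46 members. It was lower in cells labelled Bid-/- for Rnu3a (-2.07) and Snord104 (-1.10), 4.35% of members beside 0.627% of 11326 genes. It was higher for Snora30 (1.08), 2.17% beside 0.159%. Rnu3a reached the floor on the WT LPS array alone, the array that makes its difference, and Snora30 was under the floor on the Bid-/- control array. These shares are therefore no support for a difference of the set. No residual is left to test the gap between the labels. Over all 59 members the median was 0.01, with 31 above 0 and 28 below, so the set as a whole was not shifted one way. Over the 46 members that reach the floor it was -0.07, with 21 above 0 and 25 below. Across the 59 members this difference was lower where the mean signal was higher (Spearman's rho -0.36, against 0.055 across all genes). This comparison shares its arrays with those above.

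The host genes did not share the members' LPS differences in size. In 28 pairs a member had a measured host, 24 hosts in all. In WT the median over the pairs was 0.37 for the members and 0.12 for the hosts, and the member was above its host in 20 of 28 pairs. In cells labelled Bid-/- the medians over the pairs were 0.48 and -0.17, the member was above its host in 26 of 28 pairs, and 17 pairs had opposite signs. Counted once each, the 24 hosts had medians of 0.11 in WT and -0.13 in cells labelled Bid-/-. The limma fit called 0 of 24 hosts for LPS, with 0 higher and 2 lower at an unadjusted limma p under 0.05. Snord37 (1.17 and 1.78) lay in Eef2, which read -0.10 and -0.08, and Snora75 (0.89 and 0.90) in Ncl, which read 0.12 and 0.02. Snora30 (-0.08 and 1.00) lay in Srcap, a chromatin remodeller gene, which read 0.02 in WT and 0.73 with the other label. Nop56 was at 0.10 with both labels, while Snord57 inside it read 0.53 and -0.36. Pearson's r between member and host was 0.33 in WT and 0.39 with the other label over the 28 pairs, some of which share a host.

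**Figure D4:**
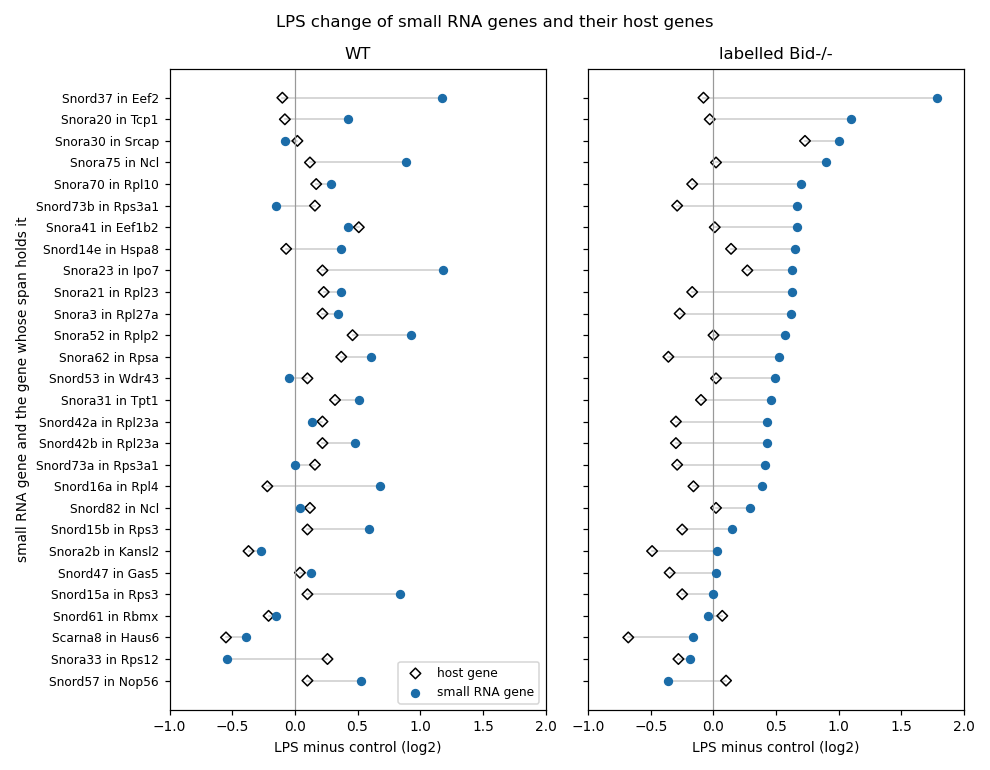
LPS minus control (x axis, log2) for 28 snoRNA genes or small Cajal body RNA genes (filled circles) and the host gene whose span holds each (open diamonds), in WT (left) and on the arrays labelled Bid-/- (right), with a grey line joining each pair. Circles lie right of the diamonds in 20 pairs on the left and 26 on the right.

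Members of 1 host did not always differ alike with LPS; 10 hosts held 2 members each, whether or not the host itself was measured. In Rack1, Snord95 and Snord96a were both higher mainly in cells labelled Bid-/- (0.28 and 0.81; 0.11 and 0.56). In Rps3, Snord15a and Snord15b were both higher in WT (0.84 and 0.00; 0.59 and 0.15), and in Rps3a1 Snord73a and Snord73b were both higher with the other label (0.00 and 0.41; -0.15 and 0.67). In the non-coding host 2410006H16Rik, by contrast, Snord49b read 0.63 and 0.21 and Snord49a -0.31 and 0.14. Snhg12 held Snora16a (0.93 and 0.14) and Snora44 (0.60 and 0.49).

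As a list, the genes for proteins that bind, build or transcribe these RNAs did not read higher with LPS, and single genes went either way. The list held 101 genes, of which 95 were measured and 93 tested, and the limma fit called 0 higher and 0 lower; at an unadjusted limma p under 0.05, 3 were higher and 25 lower, beside 9.08% and 19.7% of all genes tested, and 2 to 17 were called lower in 4 of the alternative settings. Their medians were -0.04 in WT and -0.23 in cells labelled Bid-/-, with 45 and 24 of 95 above 0. Fbl, for fibrillarin, read 7.28 (WT control), 7.53 (WT LPS), 7.19 (Bid-/- control) and 7.06 (Bid-/- LPS). Nop58, for a core protein of the box C/D particle, read 7.35, 8.05, 7.36 and 7.68, higher with LPS with both labels. Dkc1, for dyskerin, read 6.41, 5.99, 6.34 and 5.71, and Coil, for the Cajal body protein coilin, 4.47, 3.94, 4.21 and 3.84, both lower on the LPS arrays (limma adjusted p = 0.0952 and 0.0885). Unlike Dkc1, the genes for the other core proteins of the box H/ACA particle were higher with LPS in WT. In WT and in cells labelled Bid-/-, Gar1 read 0.38 and 0.18, Nhp2 0.42 and -0.18, and Nop10 0.44 and -0.23. Snu13, for another core protein of the box C/D particle, read 0.65 and -0.04. Smn1, whose protein loads the Sm ring onto snRNAs, read 6.01, 5.96, 5.89 and 5.62.

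Among other short structured RNA genes, several were highest on the WT LPS array, as Rnu3a, Rnu12 and Snord22 were. Of 10 such genes, all 10 were above 0 with LPS in WT (median 0.66), 5 of 10 with the other label (median 0.005), and all 10 were lower on the Bid-/- LPS array than on the WT LPS array (median -0.85). Rmrp, the RNA of the nuclease RNase MRP, read 9.40, 10.48, 9.42 and 9.31, and the vault RNA gene Vaultrc5 6.58, 7.58, 6.25 and 6.31. The ribosomal RNA gene n-R5s136 read 8.39, 10.02, 7.74 and 7.77. These counts include the telomerase RNA gene Terc (4.00, 4.08, 3.67 and 4.04) and Rny1 (3.44, 3.74, 3.33 and 3.16), both under the floor on every array. The directions of both are therefore uncertain, that of Terc (LPS differences of 0.08 and 0.37) included. Rn7sk (0.15 and -0.02) and Rny3 (0.19 and -0.11) differed little. For Rmrp, Vaultrc5 and n-R5s136 the WT LPS array was the highest by at least 1 on the log2 scale, as it was for Rnu3a.

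Fibroblast and mural markers also differed between the arrays. Their median was lowest on the WT control array (5.36) and highest on the WT LPS array (6.24), with 6.06 and 6.08 on the Bid-/- control and Bid-/- LPS arrays. All 8 were above 0 with LPS in WT (median 0.76) and 3 of 8 with the other label (median -0.27), and the median of Bid-/- minus WT was 0.66 without and 0.17 with LPS. Members of the list differed in shape: Tagln, a smooth muscle gene, read 5.10, 6.70, 5.76 and 5.27, highest on the WT LPS array, and Dcn, for the matrix proteoglycan decorin, 5.94, 7.31, 8.09 and 7.44, highest on the Bid-/- control array. With LPS, 5 of the 8 were higher with the Bid-/- label than in WT. The part of fibroblast or mural cells in the WT-sided differences was not tested. In bulk RNA, fewer cells of a type and less RNA per cell cannot be told apart.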

How the data were processed

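Each of the 4 groups was read on 1 array. The deposited table gives log2 expression for 28944 probe sets, with values from 1.4 to 13.5 and array medians of 4.25, 4.28, 4.24 and 4.25; no header states the base of the logarithm, which was taken as 2. Per the submitters' processing notes, the tools were Partek 6.2, Affymetrix Expression Console and RMA, listed without saying which did what. RMA brings arrays to a common distribution, which removes a shift shared by all genes. The platform annotation named 21789 probe sets by 1 symbol and 1621 by several and left 5534 unnamed, and only the first kind was used. The probe set with the highest mean was kept per gene.

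Differences between arrays were computed with no test. The additive model (genotype and LPS, 1 residual degree of freedom) was fitted on 11326 genes with limma 3.58.1 in R 4.3.3 (lmFit, eBayes with trend, Benjamini-Hochberg adjustment, threshold 0.05). It was also run on simulated data in which LPS acted alike with both labels. That run does not cover genes whose LPS difference depends on the label. Because values have 2 decimals, 169 genes had a residual of 0, and the prior had 3.07 degrees of freedom. Alternatives were no floor, a floor of 5, quantile normalization, removal of a trend with level, the mean of probe sets, no trend in the prior, and a prior without zero residuals. A host was the only other gene of the RefSeq table (GRCm38.p6) whose span holds the member, or the listed non-coding host where there were several; strand was not used, since the table gives none for the members, and Snord8 was left out. No host held 3 members, so hosts with 2 were described, a choice made after their values were seen.

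Members, gene lists and alternatives were chosen with earlier results of these data known, those of Rnu3a and Snora30 among them. Genes named were the 10 members with the highest mean signal, every member called, the 8 highest and 8 lowest LPS differences and the 6 highest and 6 lowest of each genotype comparison among members at the floor, every Rnu and Scarna gene, and fixed protein and control genes, of which 2 members are not reported here; others, such as members sharing a host, were named after their values were seen.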

Additional observations from a re-analysis of the deposited data

Results flagged for a closer look

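For 3 members the LPS difference went opposite ways with the 2 genotype labels and the gap was at least 2-fold; with 1 array per group the gap was not tested. The LPS difference in cells labelled Bid-/- minus that in WT was -2.07 for Rnu3a (2.01 in WT, -0.06 labelled Bid-/-), -1.10 for Snord104 (0.84 and -0.26) and 1.08 for Snora30 (-0.08 and 1.00). In Rnu3a and Snora30 the smaller of the 2 differences is close to 0.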

How the results depend on the processing

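The counts from the additive limma fit depended on its settings. Members called higher with LPS numbered 2, but 0 with no floor, 0 with no trend in the prior, 22 after quantile normalization, 29 with the trend with level removed and 24 with a prior without zero residuals. Members called for genotype numbered 0, but 1 higher and 3 lower with the trend with level removed and 1 higher and 5 lower with a prior without zero residuals. Protein genes called lower with LPS numbered 0, but 2 with a floor of 5, 9 after quantile normalization, 14 with the trend removed and 17 with a prior without zero residuals, and those called higher 1, 4 and 1 in the last 3 settings. Among host genes 1 was called lower in each of these 3. No member was called lower with LPS in any of the 7 alternatives. Every count of members at least 2-fold different stayed within 1.5 times its value, and the medians over all members, box C/D and box H/ACA genes moved by at most 0.1, after quantile normalization, trend removal and averaging of probe sets. Of single differences of named members, 8 moved by over 0.1 after quantile normalization and 3 after trend removal, all of them LPS differences in cells labelled Bid-/-, among them Snord15a (from 0.00 to 0.12 and 0.10) and Snord22 (from 0.11 to 0.22 and 0.21). No paired analysis was possible because each group has 1 array, and no array could be left out. The signal limits Rnu5g, Rnu6, Rnu7 and the other members under the floor, 13 in all, whose differences are uncertain.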

Other observations

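Probe sets that carry several symbols, and so belong to no member, include other genes of the same families, and the WT LPS array was again the highest for the U1, U2 and U3 sets. The 7 probe sets for Rdm1 and Rnu2-10, the latter a U2 gene, were 1.20 to 1.27 higher with LPS in WT and 0.10 to 0.18 in cells labelled Bid-/-, and -1.03 to -0.95 between the labels with LPS. The 9 sets for Rnu1b genes of U1 were 0.53 to 0.83 and 0.20 to 0.36 higher. The 4 sets for Rnu3b genes, other copies of U3, held identical values, 0.45 higher in WT and 0.08 with the other label, a smaller WT difference than the 2.01 of Rnu3a. Sets for these copies share sequence and are not separate measurements.

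In Rpl13a, which also holds the members Snord33 and Snord35a, the set for Snord34 read 0.82 and 0.55 and that for Snord32a 0.54 and -0.16. Snord14a, in Rps13, read 0.16 in WT and 0.92 in cells labelled Bid-/-, with arrays at 5.54, 5.70, 5.43 and 6.35. Snord68, in Rpl13, read 0.77 and 0.83. The 24 sets for Snord116 copies, imprinted snoRNAs of neurons, stayed between 2.41 and 3.01 on all 4 arrays, under the floor.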
